A study of Glycine max with 46 samples.

Results

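Seed coats of very young soybean seeds, weighing 5-6 mg fresh weight, were compared with coats of seeds of 25-50 mg by RNA sequencing. The compared libraries were 6 of the 46 in the series, with 3 libraries of 5-6 mg coats and 3 libraries of 25-50 mg coats. They were chosen by the seed weight and line on their labels, leaving out 2 libraries of W55 coats of 5-6 mg seeds, described further below. The 5-6 mg coats came from UC9, a black-coated Clark line with a deletion at the i locus (genotype i R T W1), from UC501, a yellow-coated Harosoy line (I r T W1), and from UC508, a Harosoy isoline bred by repeated backcrossing whose coats are defective and net-patterned (Def, net; I r T W1). The 25-50 mg coats came from W43, a yellow-coated Williams line with a black hilum (i-i RT w1), from W44, a black-coated Williams line with an inversion at i (i RT w1), and from RM38, a brown-coated Clark isoline (i r T W1). The I locus controls where pigment forms in the coat, and R, T and W1 are further colour genes. Plants were grown in a greenhouse, coats were dissected by hand, and weight was that of the whole seed. Each line gave 1 library, and only Clark stood on both sides, so line and seed weight cannot be told apart for most of what follows, and p-values measure the spread between lines as well as between samples. For that reason a gene was called only where its adjusted p was under 0.05 and the library values of the sides did not overlap. Adjusted p alone also gave 58 genes, so the second condition removed none. It cannot separate line from seed weight. Within a side, UC501 and UC508 share the Harosoy background, and W43 and W44 the Williams background. limma took the 3 libraries of a side as independent, so its p-values can understate the spread between backgrounds. The 3 libraries of 5-6 mg coats carry consecutive library numbers in their titles and those of 25-50 mg coats do not, so library preparation and seed weight cannot be told apart either.

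The seed coat is maternal tissue that grows out of the integuments of the ovule. It first divides and expands around the young endosperm and embryo, passes sugars and amino acids from the phloem to them, and later builds thick, lignified and lipid-sealed walls and, in pigmented lines, deposits flavonoid pigments in its outer cells. In soybean the coat also holds chlorophyll for much of its growth, and its outer layers become palisade and hourglass cells. Growing walls are loosened by expansins and xyloglucan endotransglucosylases, their pectin is remodelled by methylesterases and acetylesterases, and walls that have stopped growing receive secondary cellulose and lignin polymerised by peroxidases and laccases.

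The 6 libraries held between 18.1 M and 215.8 M counted alignments (M, mega); the lowest was RM38, and the other 5 held at least 103.7 M. One read in a transcript of 1 kb was worth 0.0553 RPKM in RM38. Across 29861 genes with a mean of at least 1 RPKM, the correlation of log2 values was 0.983 between UC501 and UC508. It was 0.952 between UC9 and UC501, 0.933 between UC9 and UC508, and 0.955 between W43 and W44, which share a background. Pairs from different sides, RM38 aside, had 0.919 to 0.940, so UC9 and UC508 were no more alike than such pairs. RM38 stood apart from every other library, with correlations of 0.845 to 0.892, also with the 2 other libraries of its own stage. All levels below are RPKM (reads per kilobase of transcript and M alignments) after 1 scaling factor per library, called rescaled RPKM, and all differences are 5-6 mg over 25-50 mg coats in log2(rescaled RPKM + 1). Library values follow the order UC9, UC501 and UC508 for 5-6 mg coats, and W43, W44 and RM38 for 25-50 mg coats. The added 1 understates the change of genes with low levels. Since these are whole coats, fewer cells of a type and less RNA per cell cannot be told apart.

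Of the 29861 genes, 58 were called by limma with Benjamini-Hochberg adjustment, or 0.194%. Of these, 20 rose in 5-6 mg coats (0.067%) and 38 fell (0.127%). The raised genes included 4 AP2/ERF transcription factors, 2 of them with the largest log2 differences, and a GRAS factor, and the lowered genes included enzymes of pectin, xyloglucan, lignin and wall acetylation and of cuticle or suberin lipids. Library values did not overlap for 7278 genes (24.4%), of which 3393 were higher (11.4%) and 3885 lower (13.0%) in all 3 libraries of 5-6 mg coats; 4532 genes had an unadjusted p under 0.05 (15.2%). The number of calls depended on single libraries. None remained without UC501, without UC508 or without W43, although limma then gave 2516, 2623 and 5423 genes with an unadjusted p under 0.05. Without W44 7 genes were called, 6 of them among the 58; without RM38 143 were called, 52 of them among the 58; and without UC9 335 were called, 54 of them among the 58. Without rescaling of the libraries 126 genes were called, 70 higher and 56 lower, among them all 58. With the 10-50 mg coats of W43 and W44 added to the 25-50 mg side, 3 of the 58 calls remained (Glyma.09G072000, Glyma.05G205700 and Glyma.20G148100). Genes named below that were not called are either the most abundant member of a gene list with no call or were picked after their values were seen, and for these only values are given.

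**Figure D1:**
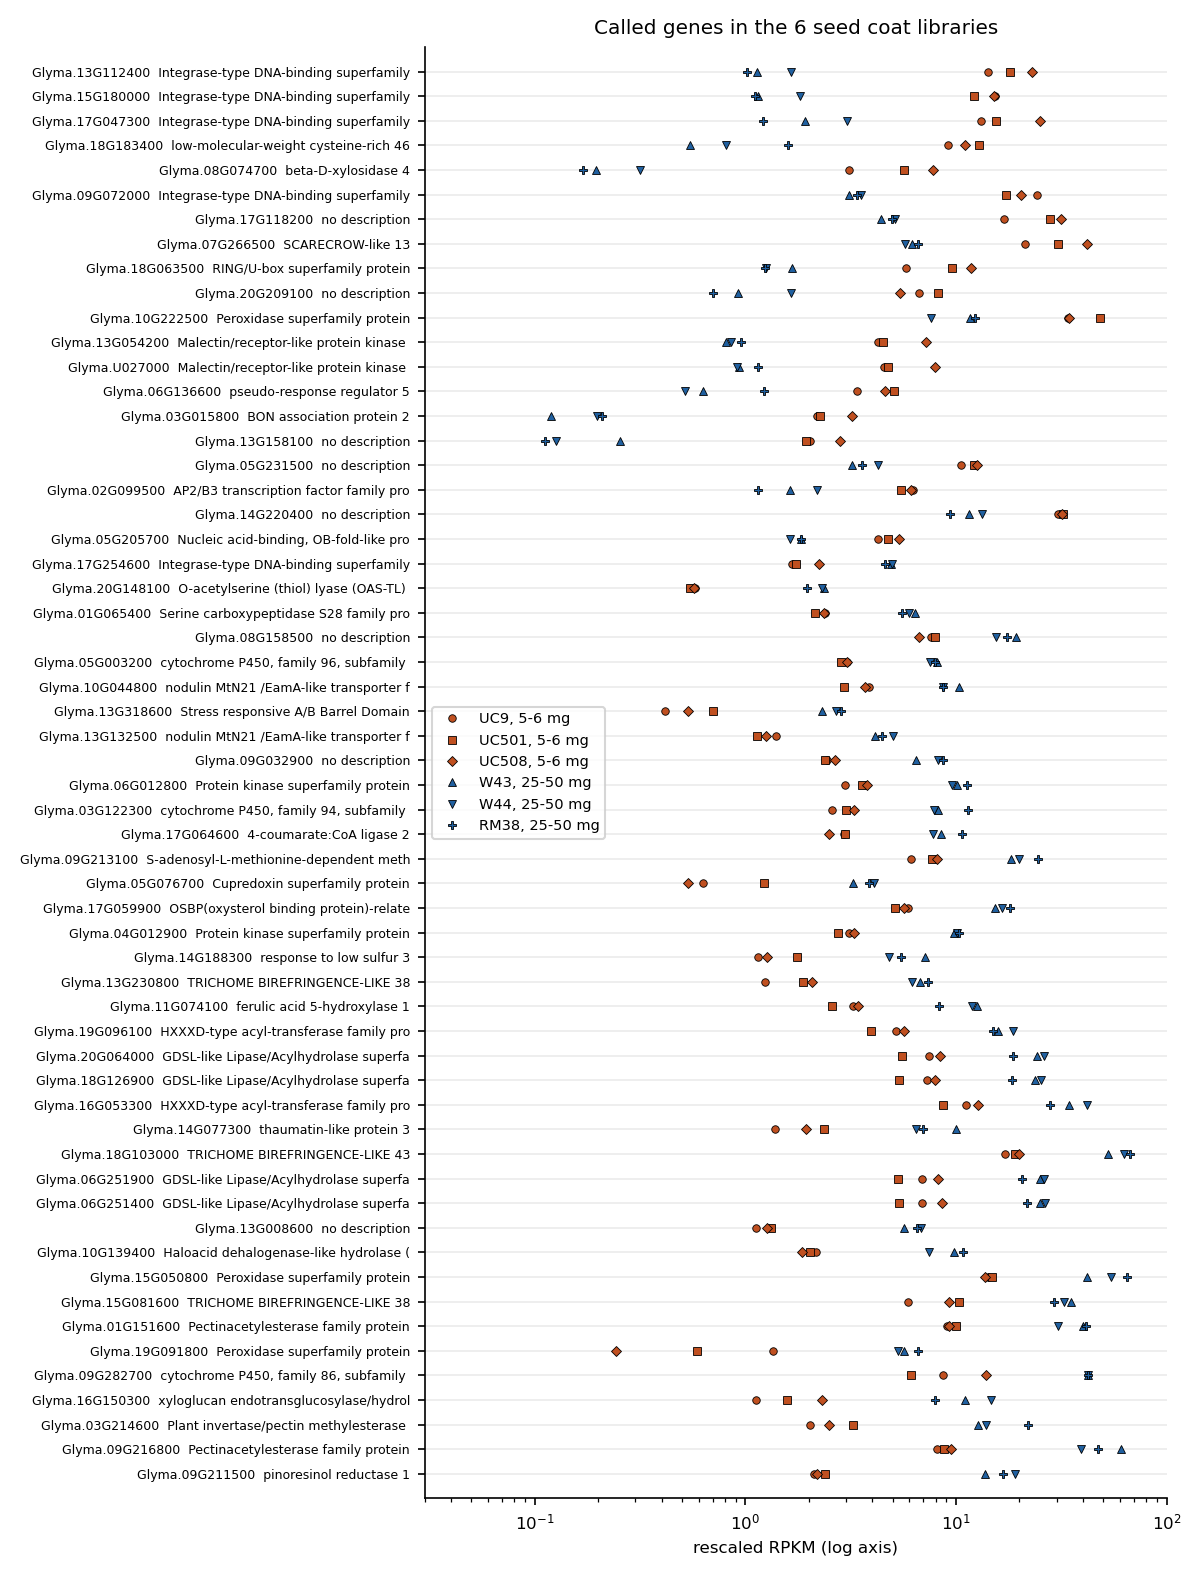
Rescaled RPKM (log axis) of the 58 called genes, 1 row per gene, in the 3 libraries of 5-6 mg coats (orange) and the 3 libraries of 25-50 mg coats (blue), with a marker shape for each library. The 20 raised genes stand above and the 38 lowered genes below, and in no row do the colours overlap, because the absence of overlap was part of the rule for a call.

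Of the 20 raised genes, 4 are described as integrase-type DNA-binding proteins, the annotation's name for the AP2/ERF family of plant transcription factors, which includes regulators of the response to ethylene, cold and drought. Glyma.13G112400 stood at 14.2 (UC9), 18.1 (UC501) and 22.9 (UC508) in 5-6 mg coats, against 1.13 (W43), 1.65 (W44) and 1.02 (RM38) in 25-50 mg coats. Its log2 difference was 3.08 (SE 0.20; limma, adjusted p = 0.00754). Glyma.15G180000 stood at 15.3, 12.2 and 15.1 in 5-6 mg coats, against 1.15, 1.81 and 1.11 in 25-50 mg coats, and its log2 difference was 2.69 (SE 0.17; limma, adjusted p = 0.00754). In both genes the 5-6 mg libraries were close to each other and several times above the 25-50 mg libraries, which the rule for a call favours. Glyma.17G047300 stood at 13.1, 15.5 and 25.0 in 5-6 mg coats, against 1.91, 3.02 and 1.21 in 25-50 mg coats, a log2 difference of 2.62 (SE 0.29; limma, adjusted p = 0.034). Glyma.09G072000 stood at 24.1, 17.3 and 20.4 in 5-6 mg coats, against 3.09, 3.52 and 3.39 in 25-50 mg coats, a log2 difference of 2.31 (SE 0.16; limma, adjusted p = 0.00792). Another member, Glyma.17G254600, fell, with 1.66, 1.74 and 2.23 in 5-6 mg coats, against 4.94, 4.96 and 4.60 in 25-50 mg coats (log2 difference -1.03). Of 58 tested AP2/ERF genes, a list made after the values were seen, 14 (24.1%) were higher and 9 (15.5%) lower without overlap, where 11.4% and 13.0% of all genes were, so the lower share is near that of all genes.

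A rise was also called in other regulators. Glyma.07G266500, described as SCARECROW-LIKE 13 (SCL13), a GRAS-family factor that acts in phytochrome signalling in Arabidopsis, stood at 21.3, 30.5 and 41.7 in 5-6 mg coats, against 6.17, 5.69 and 6.63 in 25-50 mg coats (log2 difference 2.12; limma, adjusted p = 0.0343). A related gene, Glyma.13G285400 (SCL5), had 35.8, 53.7 and 73.0 in 5-6 mg coats and 11.4, 12.1 and 20.4 in 25-50 mg coats but was not called (limma, adjusted p = 0.0739). Glyma.06G136600, a homologue of the clock gene PRR5, stood at 3.38, 5.10 and 4.62 in 5-6 mg coats, against 0.630, 0.514 and 1.23 in 25-50 mg coats (log2 difference 1.59; limma, adjusted p = 0.0463). A second PRR5 homologue, Glyma.04G228300, had 3.14, 4.44 and 4.81 in 5-6 mg coats and 0.935, 0.982 and 1.45 in 25-50 mg coats and was not called (limma, adjusted p = 0.054). Glyma.02G099500, a homologue of TEMPRANILLO 1 (TEM1), which delays flowering in Arabidopsis, stood at 6.26, 5.47 and 6.10 in 5-6 mg coats, against 1.63, 2.20 and 1.14 in 25-50 mg coats (log2 difference 1.40). The RING/U-box protein Glyma.18G063500, of a family that holds many ubiquitin ligases, stood at 5.80, 9.59 and 11.8 in 5-6 mg coats, against 1.67, 1.25 and 1.24 in 25-50 mg coats (log2 difference 2.03). UC9 was the lowest of the 5-6 mg libraries in SCL13, PRR5 and the RING gene, and still above all 25-50 mg libraries, as the rule for a call demands.

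Among the other 12 raised genes were secreted and wall proteins. Glyma.18G183400 encodes a small cysteine-rich protein (LCR46) of a family related to plant defensins, and stood at 9.15, 12.8 and 11.1 in 5-6 mg coats, against 0.549, 0.808 and 1.59 in 25-50 mg coats (log2 difference 2.62; limma, adjusted p = 0.018). The peroxidase Glyma.10G222500 stood at 33.8, 48.2 and 34.3 in 5-6 mg coats, against 11.7, 7.64 and 12.2 in 25-50 mg coats (log2 difference 1.79; limma, adjusted p = 0.0463). Glyma.08G074700, a homologue of beta-D-xylosidase 4 (XYL4), an enzyme that trims xylose from wall polysaccharides, stood at 3.11, 5.69 and 7.78 in 5-6 mg coats and at or below 0.315 in 25-50 mg coats. Malectin-domain receptor kinases related to FERONIA (FER), which senses the state of the wall in Arabidopsis, were called as 2 entries, Glyma.13G054200 and Glyma.U027000, with log2 differences of 1.72 each. Their levels were nearly the same in every library, so they may share reads and are uncertain as separate genes. Glyma.03G015800, a homologue of BAP2, which restrains cell death in Arabidopsis, stood at 2.19, 2.26 and 3.20 in 5-6 mg coats, against 0.120, 0.197 and 0.208 in 25-50 mg coats. The nucleic acid-binding protein Glyma.05G205700 had a log2 difference of 1.06. The remaining 5 raised genes carry no description; the most abundant, Glyma.14G220400, stood at 30.5, 32.2 and 31.8 in 5-6 mg coats, against 11.5, 13.3 and 9.39 in 25-50 mg coats.

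The lowered genes included several enzymes of pectin and xyloglucan, the matrix of growing walls. The pectin acetylesterase Glyma.09G216800, which removes acetyl groups from pectin, fell to 8.11 (UC9), 8.72 (UC501) and 9.50 (UC508) in 5-6 mg coats, against 60.95 (W43), 39.0 (W44) and 47.4 (RM38) in 25-50 mg coats (log2 difference -2.34, SE 0.19; limma, adjusted p = 0.018). A second one, Glyma.01G151600, stood at 9.04, 10.0 and 9.29 in 5-6 mg coats, against 40.1, 30.5 and 41.4 in 25-50 mg coats (log2 difference -1.86; limma, adjusted p = 0.0227). In both, the 5-6 mg libraries lay within a narrow band far under the 25-50 mg libraries, which the rule for a call favours. Glyma.03G214600, described as an invertase or pectin methylesterase inhibitor, stood at 2.03, 3.25 and 2.50 in 5-6 mg coats, against 12.7, 13.8 and 21.9 in 25-50 mg coats (log2 difference -2.23). Glyma.16G150300, a homologue of the xyloglucan endotransglucosylase XTH5, which cuts and rejoins xyloglucan chains, stood at 1.13, 1.57 and 2.31 in 5-6 mg coats, against 11.1, 14.6 and 7.91 in 25-50 mg coats (log2 difference -2.18; limma, adjusted p = 0.0345). Of 110 tested pectin genes, 3 were called lower and none higher, and 44 (40.0%) were lower and 4 higher without overlap, where 13.0% and 11.4% of all genes were. Among those without overlap was a homologue of pectin methylesterase 3, Glyma.16G014100, at 52.1, 98.2 and 87.6 in 5-6 mg coats and 360.3, 262 and 536 in 25-50 mg coats; it was not called (limma, adjusted p = 0.0682). When the 10-50 mg coats of W43 and W44 were added to the 25-50 mg side, only 13 pectin genes (11.9%) were still lower without overlap, where 6.77% of all genes were. Without these added coats, 1 of 38 tested xyloglucan endotransglucosylases was called, and 9 (23.7%) were lower and 1 (2.6%) higher without overlap. The expansins had no call, with 8 (25.0%) lower and 2 (6.25%) higher of 32 tested. Over all genes 13.0% were lower and 11.4% higher. The most abundant expansin, Glyma.03G035800, averaged 152.3 ± 46.96 in 5-6 mg coats and 321 ± 178 in 25-50 mg coats (SD, n = 3 each), with overlap.

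Genes of wall acetylation and of lignan synthesis were also among those that fell. TRICHOME BIREFRINGENCE-LIKE (TBL) proteins belong to a family that acetylates wall polysaccharides in Arabidopsis. Glyma.18G103000 (TBL43) stood at 17.1, 19.0 and 20.0 in 5-6 mg coats, against 52.8, 62.9 and 66.8 in 25-50 mg coats (log2 difference -1.65, SE 0.17; limma, adjusted p = 0.033). Glyma.15G081600 (TBL38) stood at 5.94, 10.4 and 9.29 in 5-6 mg coats, against 35.0, 32.6 and 29.2 in 25-50 mg coats (log2 difference -1.83), and a second TBL38 homologue, Glyma.13G230800, had a log2 difference of -1.52. These were 3 of 55 tested TBL genes, a list made after the values were seen. In that list 13 (23.6%) were lower and 3 (5.5%) higher without overlap, where 13.0% and 11.4% of all genes were. The most lowered of all called genes was Glyma.09G211500, a homologue of pinoresinol reductase 1, which acts in the synthesis of lignans from monolignols. It stood at 2.12, 2.39 and 2.18 in 5-6 mg coats, against 13.7, 19.1 and 16.7 in 25-50 mg coats (log2 difference -2.43, SE 0.15; limma, adjusted p = 0.00754). The 5-6 mg libraries lay close together in this gene and far under every 25-50 mg library, which the rule for a call favours. Of these libraries, UC501 and UC508 share the Harosoy background.

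Genes of phenylpropanoid and lignin synthesis showed a mixed picture, with few calls. A homologue of ferulate 5-hydroxylase (CYP84A1), which leads to syringyl lignin, Glyma.11G074100, stood at 3.24, 2.58 and 3.44 in 5-6 mg coats, against 12.5, 12.0 and 8.33 in 25-50 mg coats (log2 difference -1.53; limma, adjusted p = 0.0384). The 4-coumarate:CoA ligase Glyma.17G064600 (4CL2), which activates hydroxycinnamic acids for lignin and flavonoids, stood at 2.93, 2.98 and 2.48 in 5-6 mg coats, against 8.44, 7.73 and 10.7 in 25-50 mg coats (log2 difference -1.38). Each was the only called gene of its list: 10 of 22 tested lignin genes (45.5%) and 5 of 15 genes of general phenylpropanoid synthesis (33.3%) were lower without overlap, and none was higher. Over all genes 13.0% were lower and 11.4% higher. Among 46 tested peroxidases 1 rose and 2 fell, and 16 (34.8%) were lower and 1 higher without overlap; with the W55 coats of 5-6 mg seeds added, 8 of 43 were lower, where 5.92% of all genes were. The lowered Glyma.15G050800 stood at 14.2, 14.9 and 13.7 in 5-6 mg coats, against 41.7, 54.2 and 64.6 in 25-50 mg coats (log2 difference -1.81; limma, adjusted p = 0.034), and the lowered Glyma.19G091800 had a log2 difference of -2.03. Laccases oxidise monolignols and flavonoids. The homologue of LAC15 (TT10 in Arabidopsis, where it browns the seed coat), Glyma.16G158400, had 40.0, 3.97 and 4.54 in 5-6 mg coats and 224.3, 147.3 and 244.2 in 25-50 mg coats. Its log2 difference of -4.28 was larger than that of any called gene, but UC9 lay far above the other 5-6 mg libraries, and it was not called (limma, adjusted p = 0.0781).

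Many secondary-wall genes had lower values in 5-6 mg coats, without a call. Of 73 tested genes of cellulose synthesis and secondary walls, 35 (47.9%) were lower and 3 higher without overlap, where 13.0% and 11.4% of all genes were. The median log2 difference was -0.61, where that of all genes was 0.00. The most abundant, the arabinogalactan protein homologue Glyma.02G307700 (FLA7), averaged 105.8 ± 21.3 in 5-6 mg coats and 362 ± 159 in 25-50 mg coats (SD, n = 3 each). A homologue of FLA11, which marks secondary walls in Arabidopsis stems, Glyma.19G180700, had 1.78, 3.05 and 1.32 in 5-6 mg coats and 14.1, 8.99 and 21.5 in 25-50 mg coats (limma, adjusted p = 0.0523). The secondary-wall cellulose synthase homologue Glyma.06G225500 (CESA7) had 4.18, 10.7 and 5.25 in 5-6 mg coats and 32.4, 14.1 and 26.1 in 25-50 mg coats (limma, adjusted p = 0.125). In each of these genes UC501 was the highest 5-6 mg library or close to it, and W44 the lowest 25-50 mg library or close to it. The 15 xylem markers summed to 6.86 to 10.4 in 5-6 mg coats and 17.7 to 23.9 in 25-50 mg coats. Of 5 tested, 4 were lower without overlap, all of them homologues of the xylem cysteine peptidase XCP2. The other tested marker, the XCP1 homologue Glyma.15G083400, overlapped, with 3.58, 2.99 and 2.72 in 5-6 mg coats and 3.86, 3.14 and 3.41 in 25-50 mg coats. The VND1 homologue Glyma.16G130200, too low to be tested, was higher: 0.380, 0.314 and 0.348 in 5-6 mg coats, against 0.161, 0.240 and 0.203. The part of these markers in the result was not tested. With the 10-50 mg coats added, 20 of the 73 (27.4%) were still lower without overlap, where 6.77% of all genes were.

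**Figure D2:**
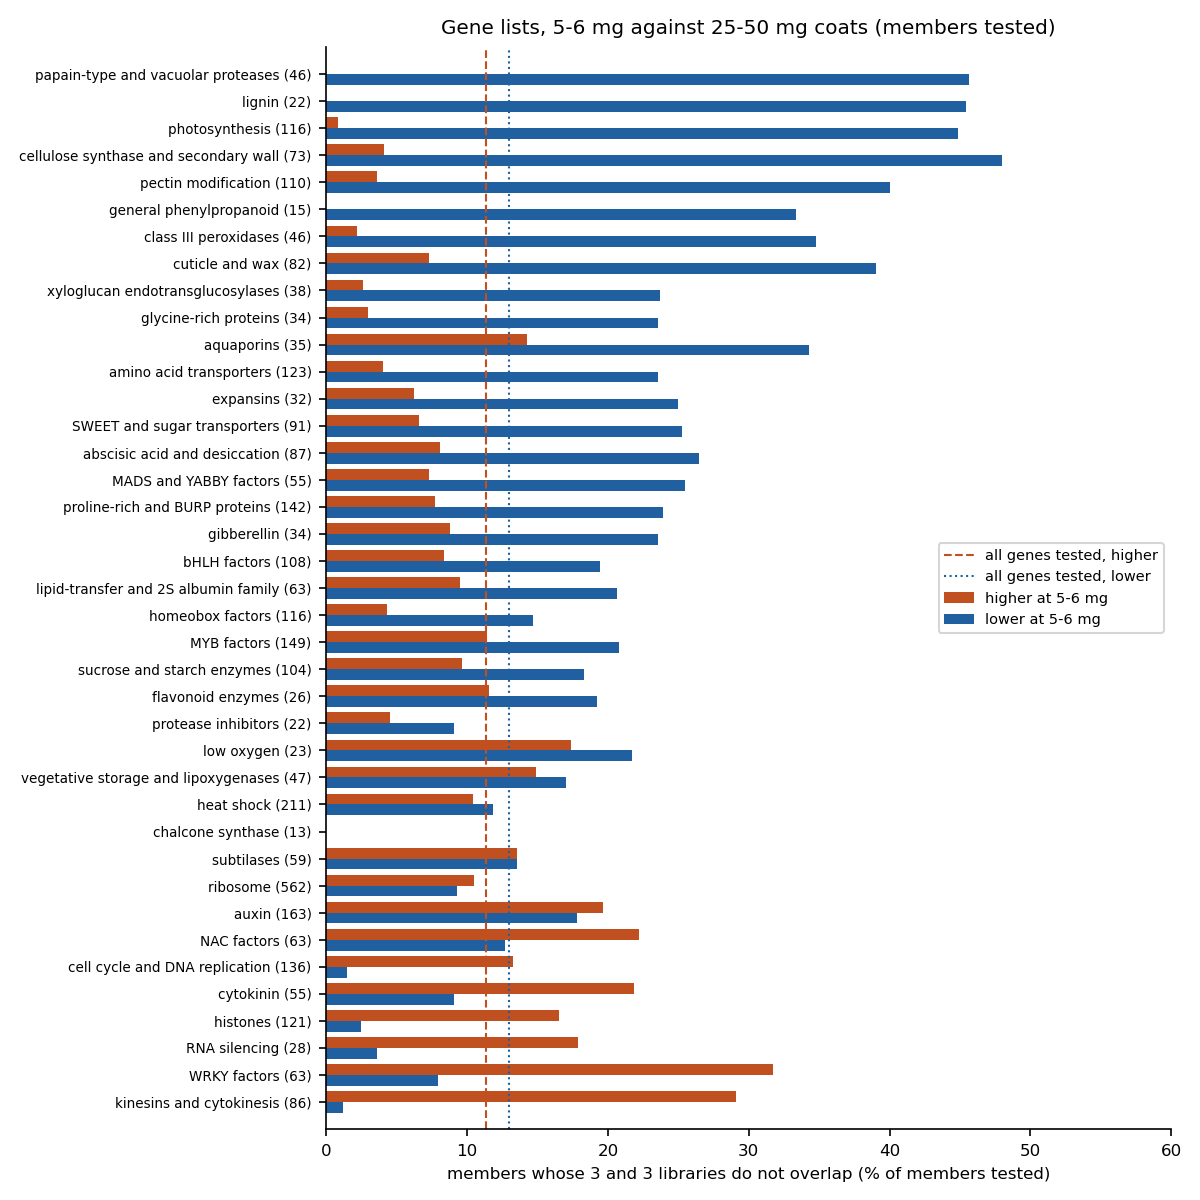
Share of the tested members of each of 39 gene lists whose 3 library values in 5-6 mg coats lay above (higher) or below (lower) all 3 values in 25-50 mg coats, in percent of the members tested. The dashed lines mark the shares over all 29861 genes, 11.4% higher and 13.0% lower; photosynthesis, cellulose, lignin, papain-type protease and pectin lists reach 40.0% or more lower, and WRKY factors and kinesins are the highest on the other side.

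Several genes for the lipids that seal the coat fell in 5-6 mg coats. Glyma.09G282700, a homologue of CYP86B1, which makes the very-long-chain hydroxy acids of suberin in Arabidopsis, stood at 8.67, 6.08 and 13.9 in 5-6 mg coats, against 42.1, 42.1 and 42.3 in 25-50 mg coats (log2 difference -2.10, SE 0.27; limma, adjusted p = 0.0446). The other cytochrome P450 genes called were Glyma.03G122300 (CYP94D2; log2 difference -1.35) and Glyma.05G003200 (CYP96A1; log2 difference -1.16). In the CYP86 and CYP94 to CYP96 families, a list made after the values were seen, 3 of 13 tested genes were called lower and 9 were lower without overlap. Over all genes 0.127% were called lower, and 13.0% were lower and 11.4% higher without overlap. GDSL-type lipases, a large family with members that build cutin, were called as 4 entries, Glyma.06G251400, Glyma.06G251900, Glyma.18G126900 and Glyma.20G064000, with log2 differences of -1.69, -1.69, -1.58 and -1.57. Glyma.06G251400 stood at 6.92, 5.35 and 8.56 in 5-6 mg coats, against 25.1, 26.4 and 21.8 in 25-50 mg coats, and the other 3 had nearly the same levels in each library, so the 4 may share reads. HXXXD-type acyltransferases, which transfer acyl groups to phenolics and lipids, gave 2 calls: Glyma.16G053300 stood at 11.1, 8.72 and 12.7 in 5-6 mg coats, against 34.2, 42.0 and 27.9 in 25-50 mg coats (log2 difference -1.59), and Glyma.19G096100 had a log2 difference of -1.57. Of 82 tested genes of the cuticle and wax list, 32 (39.0%) were lower and 6 higher without overlap, and 4 were called lower. With the 10-50 mg coats added, 18 of the 82 (22.0%) remained lower without overlap, where 6.77% of all genes were.

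The other lowered genes had no common family. The haloacid dehalogenase-like hydrolase Glyma.10G139400 stood at 2.16, 2.02 and 1.86 in 5-6 mg coats, against 9.82, 7.45 and 10.8 in 25-50 mg coats (log2 difference -1.77; limma, adjusted p = 0.0227). The S-adenosylmethionine-dependent methyltransferase Glyma.09G213100 stood at 6.13, 7.65 and 8.09 in 5-6 mg coats, against 18.3, 19.8 and 24.5 in 25-50 mg coats (log2 difference -1.40). Glyma.17G059900, a homologue of the oxysterol-binding protein ORP4B, stood at 5.90, 5.12 and 5.64 in 5-6 mg coats, against 15.4, 16.6 and 18.0 in 25-50 mg coats (log2 difference -1.43). In each of these genes the values within a side lay close together, which the rule for a call favours. A pair of nodulin MtN21-type transporters, related to amino acid exporters in Arabidopsis, fell: Glyma.13G132500 stood at 1.40, 1.13 and 1.26 in 5-6 mg coats, against 4.14, 5.05 and 4.44 in 25-50 mg coats (log2 difference -1.29), and Glyma.10G044800 had a log2 difference of -1.18. These were the 2 calls among 123 tested amino acid transporters, of which 29 (23.6%) were lower and 5 (4.1%) higher without overlap. Over all genes these shares were 13.0% and 11.4%. Sulfur-related genes were the LSU3 homologue Glyma.14G188300 (log2 difference -1.51) and the cysteine synthase homologue Glyma.20G148100 (-1.03). The protein kinases Glyma.04G012900 (-1.46) and Glyma.06G012800 (-1.35), the thaumatin-like protein Glyma.14G077300 (-1.60), the cupredoxin Glyma.05G076700 (-1.41), the stress-responsive A/B barrel protein Glyma.13G318600 (-1.22) and the serine carboxypeptidase Glyma.01G065400 (-1.08) completed the described genes. The last 3 lowered genes, Glyma.13G008600, Glyma.09G032900 and Glyma.08G158500, carry no description.

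Chalcone synthase levels differed with coat colour, and within each colour they were lower in the 5-6 mg coats. This enzyme makes the first compound of the flavonoid pathway, and small RNAs from the I locus silence it in yellow coats. Its 24 genes summed to 507 (UC9), 95.97 (UC501) and 88.1 (UC508) in 5-6 mg coats, and to 199.6 (W43), 722 (W44) and 782 (RM38) in 25-50 mg coats. The pigmented lines UC9, W44 and RM38 were the 3 highest and the yellow lines UC501, UC508 and W43 the 3 lowest. Among the pigmented lines UC9 lay below W44 and RM38, and among the yellow lines UC501 and UC508 lay below W43. W43 carries i-i and has a black hilum, while UC501 and UC508 carry I, so weight and genotype cannot be told apart here. None of the 13 tested chalcone synthase genes was called or free of overlap, although all 13 had a negative log2 difference (median -0.91), and the most abundant, Glyma.01G228700, averaged 115 ± 158 in 5-6 mg coats and 278 ± 198 in 25-50 mg coats (SD, n = 3 each). Copies of this family are nearly identical, so single copies are uncertain. Of 26 tested other flavonoid genes none was called, 5 (19.2%) were lower and 3 (11.5%) higher without overlap, where 13.0% and 11.4% of all genes were. The flavanone 3-hydroxylase Glyma.02G048400 averaged 515 ± 32.8 in 5-6 mg coats and 555 ± 232 in 25-50 mg coats (SD, n = 3 each). The chalcone isomerases had lower values in all 5-6 mg libraries without being called: Glyma.04G222400 had 76.2, 67.8 and 61.6 in 5-6 mg coats and 101.6, 112 and 199.6 in 25-50 mg coats, and Glyma.06G143000 had 102.5, 90.8 and 93.6 in 5-6 mg coats and 128, 143 and 239.8 in 25-50 mg coats. Glyma.13G090000, a homologue of TT1, which the pigmented inner coat of Arabidopsis needs, had 4.28, 2.31 and 3.08 in 5-6 mg coats and 9.22, 13.2 and 5.89 in 25-50 mg coats (limma, adjusted p = 0.129).

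Photosynthesis genes were lower in 5-6 mg coats as a list, without a call. Of 116 tested, 52 (44.8%) were lower and 1 higher without overlap, where 13.0% and 11.4% of all genes were, and the median log2 difference was -0.52. The most abundant, the light-harvesting protein homologue Glyma.08G082900 (CAB1), averaged 111.4 ± 28.0 in 5-6 mg coats and 181.4 ± 35.3 in 25-50 mg coats (SD, n = 3 each), with overlap. Glyma.15G253700, a homologue of the photosystem II subunit PSBR, had 44.3, 55.2 and 42.2 in 5-6 mg coats and 80.7, 92.4 and 98.0 in 25-50 mg coats (limma, adjusted p = 0.105). The antenna protein homologue Glyma.10G177200 (LHCB5) had 13.4, 25.3 and 18.9 in 5-6 mg coats and 43.4, 39.6 and 42.7 in 25-50 mg coats (limma, adjusted p = 0.104). The leaf mesophyll markers, which share genes with this list, summed to 260.5 to 433 in 5-6 mg coats and 446 to 626 in 25-50 mg coats; 5 of 11 tested of 12 were lower without overlap, and their part was not tested. With the 10-50 mg coats added, 48 (41.4%) of the photosynthesis genes were still lower without overlap, where 6.77% of all genes were. With the W55 coats of 5-6 mg seeds added, only 5 of 113 (4.43%) were, where 5.92% of all genes were.

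Papain-type and vacuolar proteases, which break down protein in ageing cells, had no call among 46 tested, with 21 (45.7%) lower and none higher without overlap. Over all genes 13.0% were lower and 11.4% higher. The most abundant, the SAG12 homologue Glyma.06G275300, had 148.6, 326.1 and 603.7 in 5-6 mg coats and 805, 1405 and 764 in 25-50 mg coats (limma, adjusted p = 0.252). Sugar transporters had 23 of 91 tested (25.3%) lower and 6 (6.59%) higher without overlap, none called. A SWEET-type sugar exporter, Glyma.04G198400, had 6.56, 9.05 and 5.16 in 5-6 mg coats and 19.4, 27.0 and 51.2 in 25-50 mg coats (limma, adjusted p = 0.0764). Alcohol dehydrogenase, which keeps fermentation going when oxygen is low, had lower values in all 5-6 mg libraries: Glyma.14G156400 (ADH1) had 153.4, 110.6 and 301.4 in 5-6 mg coats and 460.0, 736 and 814 in 25-50 mg coats. It was not called (limma, adjusted p = 0.129), and of 23 tested low-oxygen genes 5 were lower and 4 higher without overlap. A gibberellin 2-oxidase homologue, Glyma.15G248400 (GA2OX2), of the enzymes that inactivate gibberellin, had 33.1, 20.9 and 45.8 in 5-6 mg coats and 104, 98.1 and 81.9 in 25-50 mg coats (limma, adjusted p = 0.0891).

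Among genes of dividing cells more were higher than lower without overlap in 5-6 mg coats, none of them called. Of 86 tested kinesin and cytokinesis genes, 25 (29.1%) were higher and 1 lower without overlap, with a median log2 difference of 0.30. Smaller shares were higher among 121 histones (20 genes, 16.5%) and among genes of cell cycle and replication (18 genes, 13.2%), with 3 and 2 genes lower; over all genes the share was 11.4%, which the cell cycle list is near. The histone homologue Glyma.13G286000 (HTA10) had 56.1, 58.0 and 63.4 in 5-6 mg coats and 32.3, 49.5 and 24.4 in 25-50 mg coats (limma, adjusted p = 0.25). Glyma.11G237700, a homologue of the DNA polymerase epsilon catalytic subunit, had 5.89, 5.47 and 6.68 in 5-6 mg coats and 5.11, 3.85 and 2.23 in 25-50 mg coats (limma, adjusted p = 0.294). RM38 was the lowest library in both. The kinesin count depended on single libraries: without W43 60 of 88 (68.2%) were higher, where 20.6% of all genes were, without UC9 39 of 86 (45.3%), where 20.0% were, and without RM38 26 of 88 (29.5%), where 15.7% were, with 8 lower. With the 10-50 mg coats added 9 of 86 were higher, where 5.58% of all genes were. Of all genes, 18.3% were higher without W44, 15.7% without RM38, 20.0% without UC9 and 20.6% without W43. Histones had 41 of 121 (33.9%) without W44, 35 of 121 (28.9%) without RM38 and 25 of 122 (20.5%, near all genes) without W43. Cell cycle genes had 39 of 135 (28.9%) higher without UC9 and 42 (30.9%) without W43. They had 30 of 135 (22.2%) without W44 and 21 of 135 (15.6%, near all genes) without RM38. Ribosome genes were split, with 59 higher and 52 lower of 562.

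Regulators linked to stress and to cytokinin counted more genes higher than lower without overlap. Of 63 tested WRKY factors, a family that acts in defence and senescence, 20 (31.7%) were higher and 5 (7.94%) lower without overlap, where 11.4% and 13.0% of all genes were; none was called. The WRKY53 homologue Glyma.07G057400 had 8.64, 4.49 and 9.70 in 5-6 mg coats and 1.48, 1.12 and 1.55 in 25-50 mg coats (limma, adjusted p = 0.054). With the 10-50 mg coats added, none of 64 WRKY genes was higher without overlap, where 5.58% of all genes were. Without RM38 31 of 63 (49.2%) were higher, where 15.7% of all genes were. Of 63 tested NAC factors, 14 (22.2%) were higher and 8 (12.7%) lower, the second near the 13.0% of all genes. Without UC9 23 NAC factors (36.5%) were higher, where 20.0% of all genes were. With the 10-50 mg coats added 2 were, where 5.58% of all genes were. The ATAF1 homologue Glyma.04G208300 had 5.33, 10.3 and 16.0 in 5-6 mg coats and 1.91, 2.05 and 1.96 in 25-50 mg coats (limma, adjusted p = 0.0763). Calcium pumps related to ACA2, Glyma.11G048300 and Glyma.01G193600, had 6.75 and 8.62 in UC9, and 38.8 to 44.6 in UC501 and UC508, against 2.53 to 5.11 in the 25-50 mg libraries, and may share reads. Here the Harosoy lines stood far above Clark within the 5-6 mg coats. Of 55 tested cytokinin genes 12 (21.8%) were higher and 5 (9.09%) lower without overlap, against 11.4% and 13.0% of all genes. When the 10-50 mg coats were added 6 cytokinin genes were higher, where 5.58% of all genes were. The 1 call among them was the clock gene PRR5, which the list took in as a response regulator. The type-A response regulator Glyma.17G093900 (ARR5), a primary cytokinin response gene in Arabidopsis, had 24.2, 37.3 and 46.0 in 5-6 mg coats and 14.4, 18.2 and 14.1 in 25-50 mg coats (limma, adjusted p = 0.126). A cytokinin oxidase homologue, Glyma.14G099000 (CKX7), which degrades cytokinin, had 1.63, 1.14 and 1.08 in 5-6 mg coats and 3.68, 4.23 and 7.35 in 25-50 mg coats (limma, adjusted p = 0.0722).

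The most abundant members of the lists without a call give the level of the main coat transcripts. The BURP-domain protein homologue Glyma.07G176700 (RD22) averaged 2623 ± 1172 in 5-6 mg coats and 2555 ± 723 in 25-50 mg coats, and the subtilase Glyma.06G022600 averaged 2525 ± 1545 in 5-6 mg coats and 3738 ± 398 in 25-50 mg coats (SD, n = 3 each). The lipid-transfer protein Glyma.01G132500 averaged 743 ± 224 in 5-6 mg coats and 1408 ± 326 in 25-50 mg coats, without overlap (SD, n = 3 each; limma, adjusted p = 0.331). The coat identity factor homologue Glyma.06G324400 (AGL11, SEEDSTICK), a MADS factor of ovules and seed coats, averaged 161.5 ± 9.70 in 5-6 mg coats and 172 ± 56.4 in 25-50 mg coats (SD, n = 3 each). The lipoxygenase Glyma.07G034800 averaged 449 ± 92.0 in 5-6 mg coats and 361 ± 48.1 in 25-50 mg coats, and the dehydrin Glyma.17G187600 averaged 91.5 ± 4.76 in 5-6 mg coats and 97.2 ± 19.7 in 25-50 mg coats (SD, n = 3 each). Of these genes, the lipid-transfer protein alone had sides that did not overlap. The cell cycle kinase homologue Glyma.09G030000 (CDC2) averaged 32.8 ± 0.568 in 5-6 mg coats and 29.2 ± 6.503 in 25-50 mg coats, the kinesin Glyma.06G266500 (ATK3) averaged 22.1 ± 1.07 in 5-6 mg coats and 20.2 ± 7.16 in 25-50 mg coats, and the histone Glyma.12G065400 (HTB9) averaged 192.9 ± 20.9 in 5-6 mg coats and 259.8 ± 114.9 in 25-50 mg coats (SD, n = 3 each). Each of these had sides that overlapped, and the 25-50 mg libraries varied more. Among regulators, Glyma.19G177400 (WRKY44, needed for coat pigment in Arabidopsis) averaged 40.7 ± 3.14 in 5-6 mg coats and 38.3 ± 11.9 in 25-50 mg coats, Glyma.12G221400 (NAC056) averaged 36.8 ± 8.998 in 5-6 mg coats and 42.9 ± 14.5 in 25-50 mg coats, and Glyma.13G361200 (IAA17, an auxin response repressor) averaged 81.1 ± 7.45 in 5-6 mg coats and 88.2 ± 3.39 in 25-50 mg coats (SD, n = 3 each). All 3 overlapped as well. The argonaute homologue Glyma.02G274900 (AGO4), which acts in RNA-directed DNA methylation, averaged 23.6 ± 2.82 in 5-6 mg coats and 17.5 ± 2.28 in 25-50 mg coats, without overlap (SD, n = 3 each; limma, adjusted p = 0.316). The SWEET-type transporter Glyma.05G202700, the chaperone Glyma.03G171100 (HSC70-1) and the gibberellin-regulated protein Glyma.13G039300 overlapped, with averages of 140.2, 125.8 and 287.5 in 5-6 mg coats and of 126.3, 149.4 and 364.5 in 25-50 mg coats.

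Most of the remaining lists held more lower than higher genes without overlap. No call fell in them apart from the pectin methylesterase inhibitor Glyma.03G214600, which the sucrose and starch list takes in through its invertase description. Over all genes 13.0% were lower and 11.4% higher without overlap, and a list near these shares does not stand out. Without overlap, 34 of 142 proline-rich and BURP proteins were lower (23.9%) and 11 higher (7.7%), and 8 of 34 glycine-rich proteins lower (23.5%) and 1 higher (2.9%). Further, 13 of 63 lipid-transfer proteins were lower (20.6%) and 6 higher (9.5%), and 19 of 104 sucrose and starch genes lower (18.3%) and 10 higher (9.6%). Aquaporins had 12 of 35 lower (34.3%) and 5 higher (14.3%), genes of abscisic acid and desiccation 23 of 87 lower (26.4%) and 7 higher (8.0%), and gibberellin genes 8 of 34 lower (23.5%) and 3 higher (8.8%). Among regulators, 14 of 55 MADS and YABBY factors were lower (25.5%) and 4 higher (7.3%), and 31 MYB factors lower (20.8%) and 17 higher (11.4%). Likewise 21 of 108 bHLH factors were lower (19.4%) and 9 higher (8.3%), and 17 of 116 homeobox factors lower (14.7%, near all genes) and 5 higher (4.3%). Subtilases (8 lower and 8 higher of 59, 13.6% each), auxin genes (29 lower and 32 higher), heat shock genes (25 lower and 22 higher of 211) and the vegetative storage and lipoxygenase list (8 lower and 7 higher of 47) were close to even. RNA silencing genes had 1 lower and 5 higher of 28, and protease inhibitors 2 lower and 1 higher of 22.

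The labelled tissue was checked against marker genes. Of 20 seed coat markers 3 were tested and 14 stayed under 1 rescaled RPKM in all 6 libraries; their sum was 456 to 553 in 5-6 mg coats and 464 to 1169 in 25-50 mg coats, carried mostly by the anthocyanidin synthase homologues Glyma.11G027700 and Glyma.01G214200. The endosperm markers were near 0, with 57 of 59 under 1 in all 6 libraries and sums of 6.48 to 9.27 in 5-6 mg coats and 9.30 to 12.3 in 25-50 mg coats. Embryo markers summed to 230 to 317 in 5-6 mg coats and 268 to 308 in 25-50 mg coats, with 1 higher and 10 lower without overlap of 30 tested. These sums are carried by genes of the wide cupin family, such as the acireductone dioxygenase homologue Glyma.10G244100 (ATARD2), at 33.7 to 42.2 in 5-6 mg coats and 39.2 to 56.5 in 25-50 mg coats. The oleosin Glyma.10G193900 (OLE1), of the oil bodies, had 2.25, 2.77 and 2.39 in 5-6 mg coats and 5.18, 6.998 and 13.1 in 25-50 mg coats, and the storage protein homologue Glyma.19G164800 (CRU3) had 0.377, 0.964 and 0.656 in 5-6 mg coats and 2.02, 2.47 and 2.49 in 25-50 mg coats. Both were without overlap. Not all embryo markers were lower: the WOX8 homologue Glyma.11G210800 had 1.08, 0.173 and 0.298 in 5-6 mg coats. In 25-50 mg coats it had 0.0852, 0.112 and 0.113, and its level was too low to be tested. The part of embryo markers in the results was not tested.

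**Figure D3:**
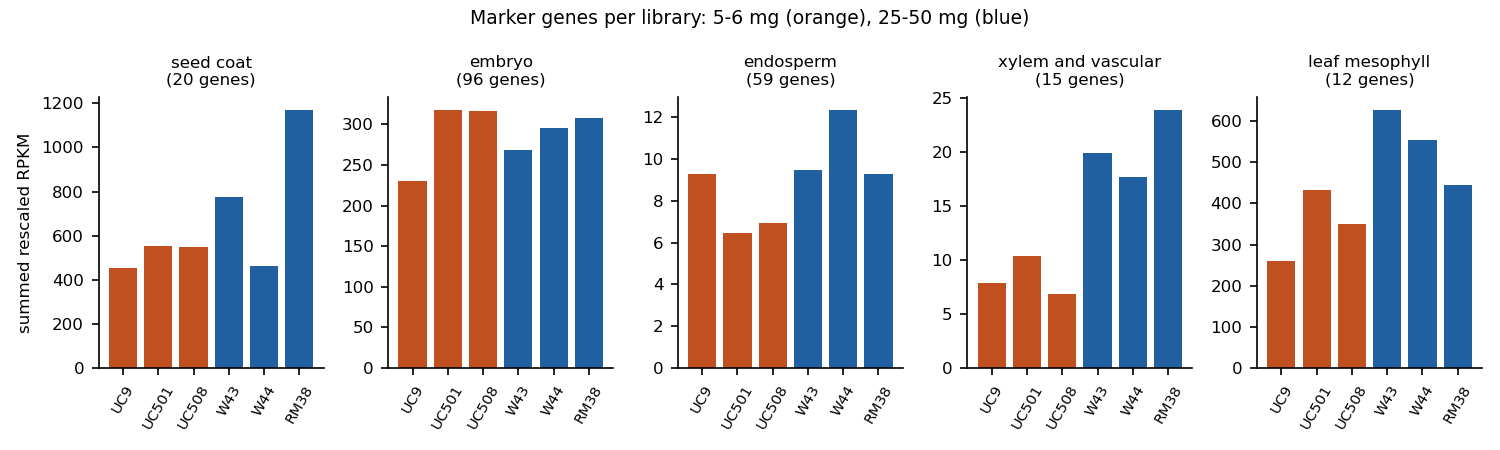
Summed rescaled RPKM of 5 marker gene lists in each of the 6 libraries, 5-6 mg coats (orange) left of 25-50 mg coats (blue). The endosperm sums stay between 6.48 and 12.3 in all libraries, the embryo sums of the sides overlap, and the xylem sums are 6.86 to 10.4 in 5-6 mg coats and 17.7 to 23.9 in 25-50 mg coats.

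The called genes were followed through 24 coat libraries at 8 seed weights on 1 scale. These libraries include the 6 that were tested, and lines differ between weights, so the courses are a description. The AP2/ERF gene Glyma.13G112400 averaged 18.4 at 5-6 mg, 2.48 at 10-25 mg, 7.84 at 10-50 mg, 1.27 at 25-50 mg and 1.39 at 50-100 mg. At 400-500 mg 1 library of W43 reached 62.04, while the other 4 stood between 1.03 and 4.85. SCL13, Glyma.07G266500, stayed high at 10-25 mg (21.6) and 10-50 mg (32.3) and stood at 6.16 at 25-50 mg and 7.57 at 50-100 mg. W43 and W44 gave libraries at both 10-50 mg and 25-50 mg, so for this gene the same lines differed between overlapping weight ranges. LCR46, Glyma.18G183400, and the peroxidase Glyma.10G222500 were highest at 10-25 mg, with 30.9 and 76.7, and were near 0 from 300 mg on.

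The lowered genes shown here followed either of 2 courses, picked after their values were seen. Pinoresinol reductase, Glyma.09G211500, averaged 2.23 at 5-6 mg and 2.77 at 10-25 mg, 16.5 at 25-50 mg and 15.0 at 50-100 mg, and 3.20 at 400-500 mg. CYP86B1, Glyma.09G282700, and XTH5, Glyma.16G150300, averaged 42.2 and 11.2 at 25-50 mg and were near 0 late, at 0.0895 and 0.0122 at 400-500 mg. Pectin methylesterase 3, Glyma.16G014100, averaged 79.3 at 5-6 mg, 386 at 25-50 mg and 1.70 at 400-500 mg. By contrast the peroxidase Glyma.15G050800 was highest late, with 14.3 at 5-6 mg, 53.5 at 25-50 mg, 105 at 75-100 mg and 366 at 400-500 mg. The hydrolase Glyma.10G139400 reached 410.2, the methylesterase inhibitor Glyma.03G214600 129 and the transporter Glyma.13G132500 71.9 at 400-500 mg, far above their levels at 25-50 mg (9.36, 16.1 and 4.54).

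**Figure D4:**
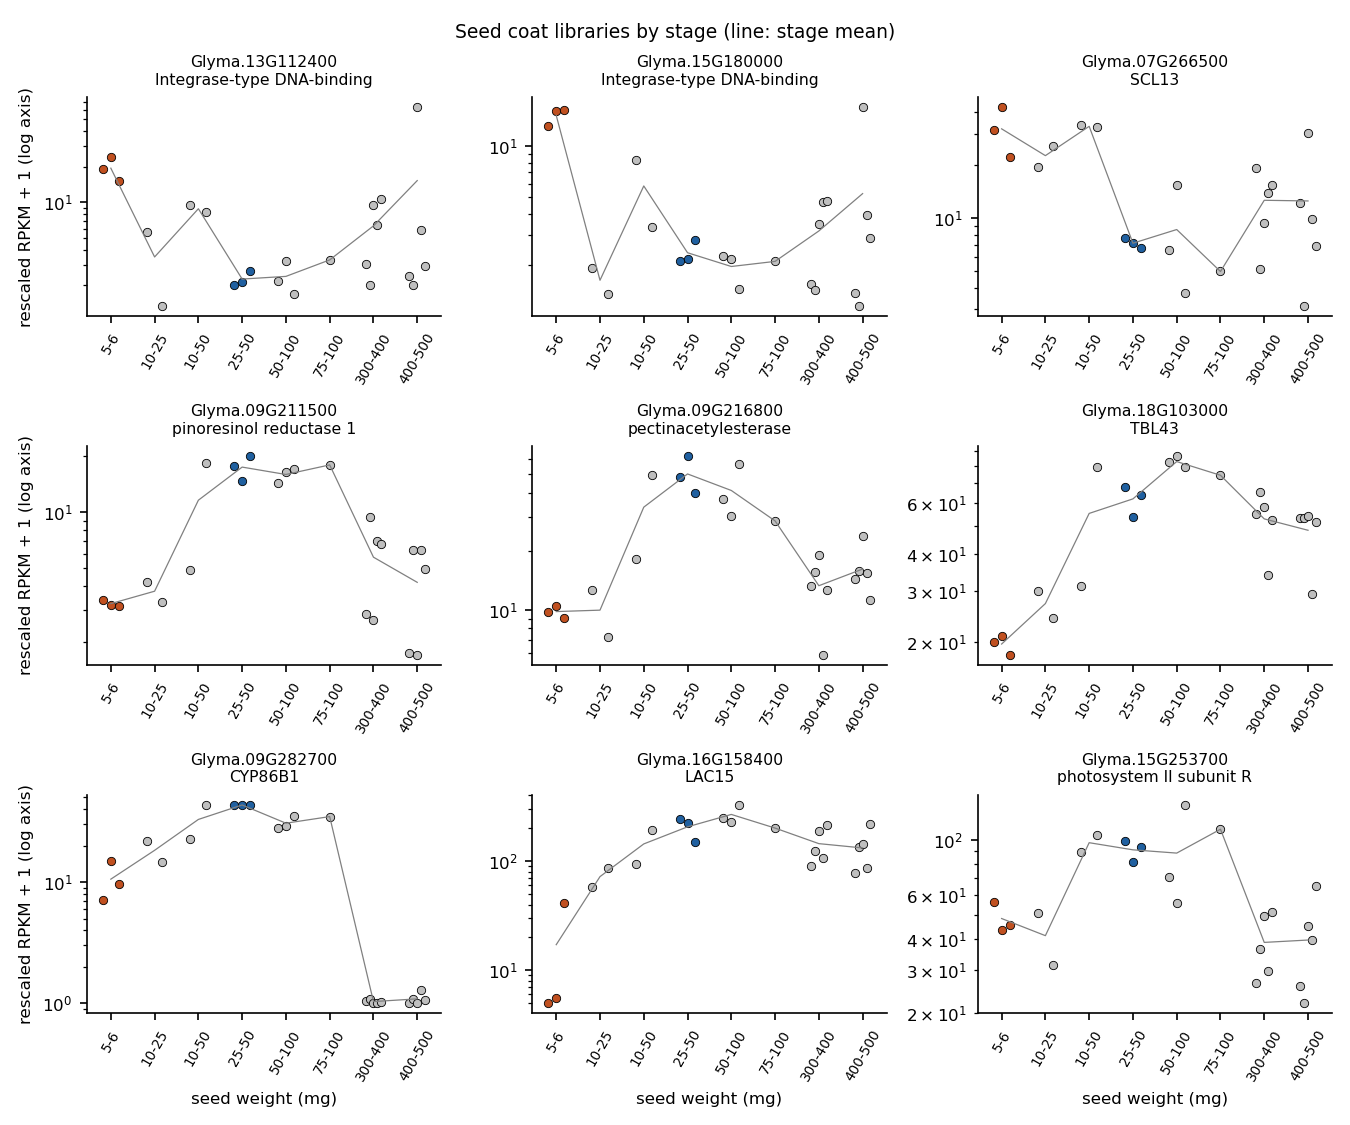
Rescaled RPKM + 1 (log axis) of 9 genes against seed weight in 8 stages, 1 point per coat library (24 libraries; 5-6 mg orange, 25-50 mg blue, other weights grey) and a line through the stage means. Glyma.13G112400 and Glyma.15G180000 have their highest stage mean at 5-6 mg, although 1 late library of W43 reaches as high or higher, while Glyma.09G211500 and Glyma.09G282700 peak at middle weights and are low again at 300 mg and above.

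A later step in weight, which holds no 5-6 mg coats, was looked at in lines that the test did not use. Richland and T157 each gave a 10-25 mg and a 50-100 mg coat library. Of the 38 lowered genes, 37 were lower at 10-25 mg than at 50-100 mg in both lines, where 36.0% of all genes were. Of the 20 raised genes, 15 were higher at 10-25 mg in both lines, where 40.6% of all genes were, and 2 were lower in both. Of the lists with lower values in 5-6 mg coats, 91 of 116 photosynthesis genes (78.4%), 51 of 73 genes of cellulose and secondary walls (69.9%), 53 of 82 cuticle and wax genes (64.6%) and 48 of 110 pectin genes (43.6%) were lower at 10-25 mg in both lines, although 43 pectin genes (39.1%) were higher in both. Other lists with more lower than higher genes in 5-6 mg coats went the other way at this step: 20 of 32 expansins (62.5%), 21 of 38 xyloglucan endotransglucosylases (55.3%) and 23 of 34 glycine-rich proteins (67.6%) were higher at 10-25 mg in both lines. Histones (94 of 121, 77.7%) and cell cycle genes (95, or 69.9%) were higher at 10-25 mg in both, with 9 (7.4%) and 16 (11.8%) lower in both. Kinesin genes were mixed, with 45 of 86 (52.3%) higher and 28 (32.6%) lower in both. Of 63 WRKY genes 32 (50.8%) were higher and 10 (15.9%) lower in both. Over all genes 40.6% were higher and 36.0% lower. No test was made with 1 library per line and weight.

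Both W55 libraries of 5-6 mg coats were compared with the 10-50 mg coats of W43 and W44, all of Williams background. W55 carries an i mutation. The W55 libraries stood apart: models that carry no description took 88.6% and 80.6% of their alignments, while the share was 7.58% to 13.4% in the 6 libraries above, and 4 models took 22.1% and 18.8% of their alignments. limma called 13500 of 25288 genes, or 53.4%, of which 6509 were higher (25.7%) and 6991 lower (27.6%) in W55. These counts rest on the rescaling: without it the median of all genes moved by -1.76 and 186 genes were called higher and 23537 lower, so the directions in W55 are relative to that shift. Of the 38 lowered genes, 37 were tested there, and 18 were called lower and none higher. Of the 20 raised genes, 17 were tested, 5 were called higher and 3 lower. Glyma.09G216800 (pectin acetylesterase) and Glyma.18G103000 (TBL43) were lower in W55, with log2 differences of -2.96 and -2.88, and the peroxidase Glyma.10G222500 and LCR46, Glyma.18G183400, were higher, with 4.13 and 2.69. SCL13, Glyma.07G266500, went the other way, with a log2 difference of -0.64 (limma, adjusted p = 0.0424), as did PRR5, Glyma.06G136600 (-0.80), and the RING gene Glyma.18G063500 (-1.11). The 4 AP2/ERF genes were not called, with log2 differences of 0.41 to 1.56. When the W55 libraries were instead added to the 5-6 mg side of the first comparison, 1 of the 58 calls remained, that of pinoresinol reductase, Glyma.09G211500.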

How the data were processed

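RNA sequencing of hand-dissected soybean seed coats was analysed from the table the authors deposited. Per the labels' protocols, total RNA was extracted with phenol:chloroform and lithium chloride and libraries were made with TruSeq or stranded TruSeq kits; the kit of each library is not stated. Reads were mapped with Bowtie, per the submitters' processing notes; neither its version nor a genome build was stated there. The deposited values are RPKM computed by the authors for 88647 transcript models, with their cDNA length in the table. RPKM times length and library total gave whole reads within 0.01 for 100% of values, which gave the depth; a read can be counted in several near-identical genes. Of 42 value columns, 4 matched no sample and were not used. The sample groups come from the labelled seed weight and line, with the W55 coats of 5-6 mg seeds kept as a separate group.

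One model per gene, that with the longest cDNA, was kept (56044 genes, of which 44491 or 79.4% carry a description). Values were rescaled per library by median ratios (factors 0.928 to 1.10). Genes whose deposited RPKM, before rescaling, had a mean of at least 1 were tested with limma 3.58.1 (R 4.3.3, lmFit, eBayes with trend, two-sided). The test used log2(rescaled value + 1) with Benjamini-Hochberg adjustment. The W55 comparison used the same steps, with factors of 0.271 and 0.518 in W55 libraries and 2.82 and 2.64 in Williams libraries. Tables were handled with Python 3.11.15 and pandas 2.3.3. In artificial data with a dispersion of 0.1 the main comparison recovered 93 of 100 genes changed 4-fold and 12 of 100 changed 2-fold. There were 3 false calls among 29766 genes. How differences between lines and the low depth of RM38 alter this recovery was not tested. Genes were named by a rule: the 10 most raised and 10 most lowered described calls with a mean of at least 10, and for each of 39 lists up to 2 raised and 2 lowered calls with a mean of at least 5 or, with no call, the most abundant member; others named were chosen after their values were seen. The members, gene lists and markers were chosen with earlier results of these data known, so counts of lists carry no test. Alternatives were other rescaling, pseudocount, filter, model choice and trend settings, leaving out each library, and adding other coats. Sequences and coordinates were not used here.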

Additional observations from a re-analysis of the deposited data

How the results depend on the processing

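Against 58 calls, 126 were made without rescaling (70 higher, 56 lower) and 14 with no filter on low values (6 higher, 8 lower, of 51966 tested); adding other coats left 1 (W55, 5-6 mg) or 3 (Williams, 10-50 mg). Leaving out 1 library gave 0 to 335 calls in that comparison. TMM rescaling, the pseudocount of 0.1, a mean of at least 5, the most expressed model and no trend kept the count within 1.5 times. Against 13500 calls in the W55 comparison, 23723 resulted without rescaling and 5098 at a mean of at least 5, and leaving out 1 library gave 7403 to 13077. The cause was not tested, except that a higher filter tests fewer genes. No paired analysis was possible because the labels give the compared groups no shared replicate numbers: each library of the main comparison is another line, and the numbers used here only name samples.

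Of 1831 values of 124 named genes over these settings, 32 changed sign, all in genes that were not called. With W55 coats added, the log2 difference was 0.30 for Glyma.08G082900, -0.10 for Glyma.02G274900, -0.29 for Glyma.06G266500, -0.0931 for Glyma.11G237700, 0.39 for Glyma.02G048400, 0.15 for Glyma.01G132500, 0.0593 for Glyma.07G176700, 0.50 for Glyma.12G065400, 0.12 for Glyma.13G361200, 0.11 for Glyma.17G187600 and -0.37 for Glyma.19G177400. Without rescaling it was 0.0687 for Glyma.02G048400, 0.0645 for Glyma.06G324400, 0.0755 for Glyma.07G176700 and 0.0324 for Glyma.17G187600, and with 10-50 mg coats added 0.0822 for Glyma.07G176700. Leaving out 1 library at a time gave ranges that crossed 0 for Glyma.06G266500 (-0.14 to 0.35), Glyma.02G048400 (-0.23 to 0.29), Glyma.03G171100 (-0.53 to 0.0654), Glyma.05G202700 (-0.16 to 0.38), Glyma.06G324400 (-0.31 to 0.19), Glyma.07G176700 (-0.35 to 0.31), Glyma.09G030000 (-0.0021 to 0.32), Glyma.12G221400 (-0.41 to 0.0581), Glyma.13G039300 (-0.67 to 0.16) and Glyma.17G187600 (-0.24 to 0.0649).

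RM38 held 18.1 M alignments, so its low values are the least exact, and 1 library per line limits every comparison.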

Other observations

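Single libraries carried some large values. The cold-shock and glycine-rich protein homologue Glyma.12G030800 (GRP2B) stood at 0.7499, 0.958 and 1.39 in 5-6 mg coats, and at 1.95 (W43), 0.641 (W44) and 610.2 (RM38) in 25-50 mg coats. A dihydroflavonol reductase, Glyma.17G252300, was at or below 0.0179 in 5-6 mg coats, and stood at 0.632 (W43), 0.0218 (W44) and 42.2 (RM38) in 25-50 mg coats. YABBY genes related to FILAMENTOUS FLOWER, Glyma.01G137200 and Glyma.03G029800, which mark the lower side of young lateral organs in Arabidopsis, stood at 2.01 and 2.09 in UC9 and at or below 0.298 in every other library of both weights. These values come from 1 library each and have no replicate.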
